A study of Mus musculus with 12 samples.

Results

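HOX genes were measured on Affymetrix mouse expression arrays in 12 samples from mouse pancreas. The members were all genes with a probe set (a group of probes for 1 transcript) whose only gene symbol is Hoxa, Hoxb, Hoxc or Hoxd followed by a number, and a gene with several such probe sets was represented by the one with the highest mean over the 12 arrays. This gave 33 genes, of the 39 HOX genes that RefSeq lists on assembly GRCm38.p6 and of the 18193 genes on the arrays. The other 6 were not analysed here. The samples form 3 groups of 4 arrays, lettered A to D. The yDucts are ductal organoids from acini of R26-rtTA; tetO-YAP S127A mice, in which doxycycline had switched on an activated form of YAP (the co-activator at the end of the Hippo pathway), and which were later passaged without doxycycline. The Ducts are organoids from hand-picked fragments of native pancreatic ducts. The Acini are freshly isolated exocrine acini, the enzyme-secreting units of the pancreas. Both kinds of organoid were kept in Matrigel in 1 medium, which held EGF, Noggin, FGF10, R-Spondin1, gastrin, nicotinamide, B27 and N-acetylcysteine, so that cell state and culture cannot be told apart in any comparison with Acini. The methods take acini from young adult mice, and the genotype behind Acini and Ducts and the age behind Ducts are not stated there or in the labels. They call the lettered arrays biological replicates without naming the animal or culture of each, so a p-value here speaks of the spread among arrays, part of which may be technical.

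HOX genes encode homeodomain transcription factors that give cells their position along the head-to-tail axis of the embryo. In the mouse they lie in 4 clusters, A to D, on separate chromosomes, and genes at the same place in different clusters (paralogues) carry the same number. Genes with low numbers are switched on early and towards the head, genes with high numbers late and towards the tail, and Polycomb complexes keep a cluster silent where it is not used while Trithorax complexes keep it active. HOX proteins bind DNA together with TALE homeodomain cofactors of the PBX, MEIS and PKNOX families. Adult fibroblasts keep a HOX pattern that reflects the site they come from.

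The deposited values are log2 intensities after RMA, an array normalization. HOX signals lay in the low range of the arrays in all groups, which is also where the groups of arrays differed. The 30th percentile of all probe sets on an array was taken as the level under which a signal has only an upper limit. It stood at 3.20 ± 0.01 in yDucts, 3.21 ± 0.02 in Ducts and 3.72 ± 0.06 in Acini (SD, n = 4 each), so the Acini arrays read higher at the bottom of their range. RNA quality differed too, since the 3′ probe set of Gapdh exceeded its 5′ probe set by -0.15 ± 0.02 in yDucts, -0.04 ± 0.04 in Ducts and 1.54 ± 0.29 in Acini. Acinar identity was checked with 9 acinar markers. Their summed linear level was 160.4 to 198.5 in yDucts, 120.0 to 255.8 in Ducts and 138100 to 142500 in Acini. Stromal markers moved the same way. All 14 fibroblast, stellate and mural cell markers were above the percentile on every Acini array, with a summed level of 3947 to 7153, against 189.9 to 194.9 in yDucts and 186.7 to 199.4 in Ducts, where Col3a1, Pdgfra and Postn were above the percentile on no array. Of the measured markers of other cell types, 10 of 10 endocrine, 11 of 12 endothelial and 8 of 10 tested immune markers were also lower in each organoid group than in Acini. Over all tested genes 32.6% were lower in yDucts and 33.1% in Ducts. Sox17 (endothelial) and Cd68 (immune) were higher in both. With Sox17, the summed endothelial level was 1208 to 2714 in yDucts, 638.5 to 922.8 in Ducts and 1380 to 1975 in Acini. Of 5 tested nerve and glia markers, 3 were lower and 1 higher in yDucts, and 4 and 1 in Ducts. The part of the low array range, of RNA quality and of stromal cells in the HOX differences below was not tested.

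**Figure D1:**
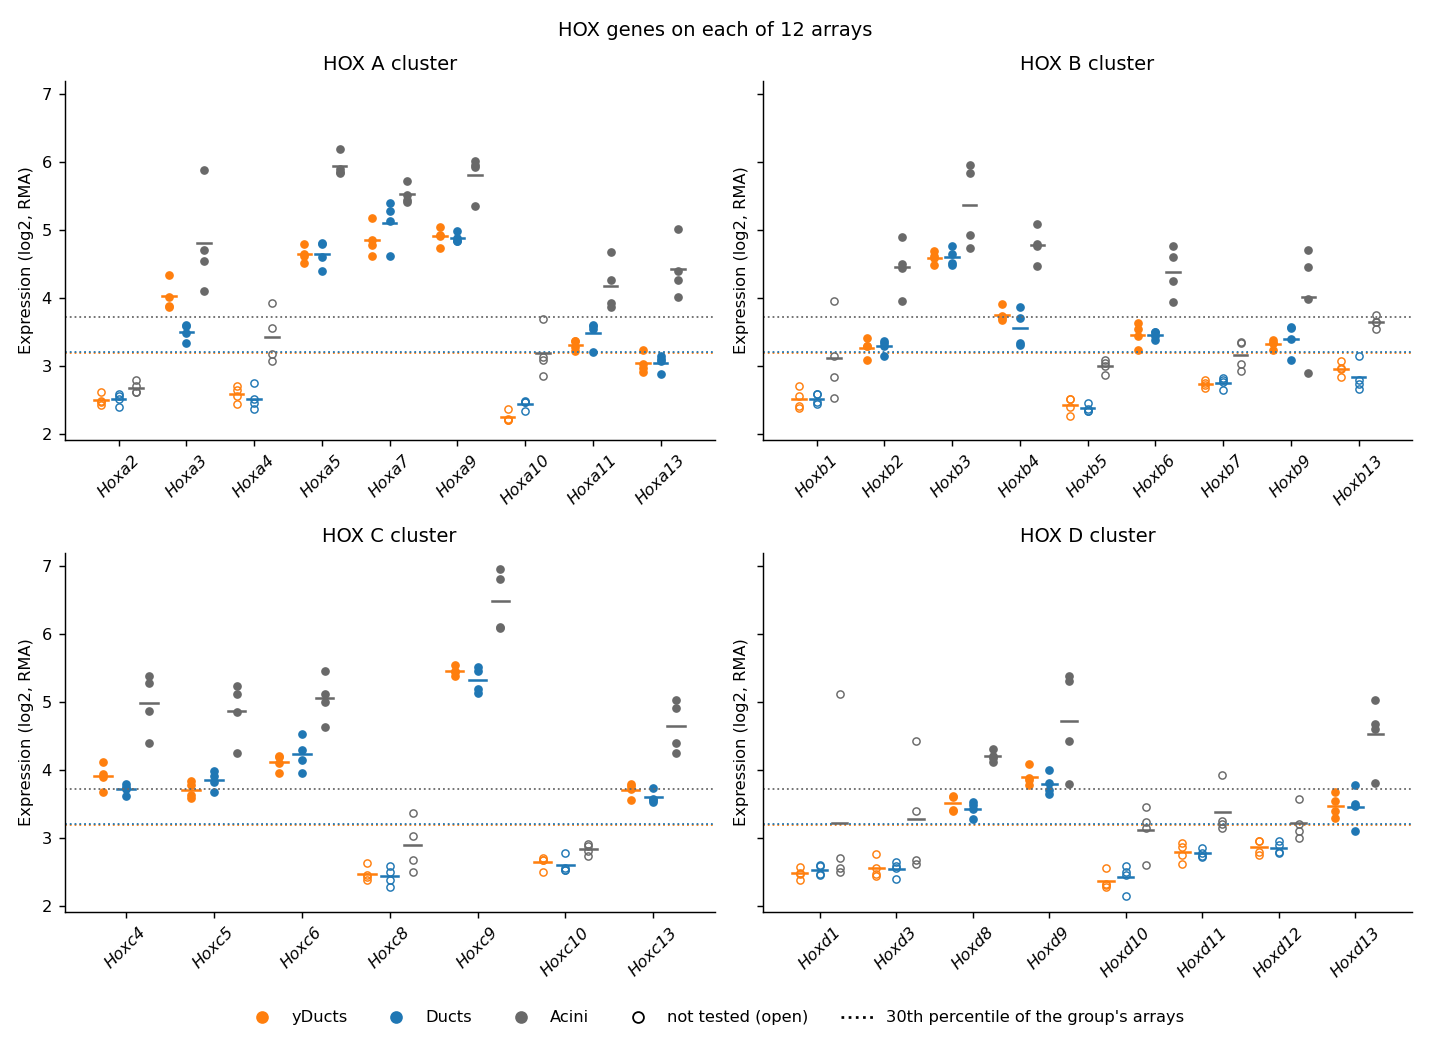
Expression (log2, RMA) of the 33 HOX genes on each array, in 1 panel per cluster with the genes in paralogue order; points are arrays of yDucts, Ducts and Acini, short bars are means of 4 arrays, open points are the 14 genes not tested, and dotted lines are the mean 30th percentile of each group's arrays (3.20, 3.21 and 3.72, the first 2 nearly on top of each other). The highest point is Hoxc9 on Acini A at 6.95.

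On a single array, 17 to 19 of the 33 HOX genes exceeded the percentile in yDucts, 17 on each array in Ducts and 19 to 21 in Acini. The mean rank of a HOX gene among all probe sets of the array had a median of 32.6% in yDucts, 34.1% in Ducts and 41.4% in Acini (0 is the dimmest probe set, 100 the brightest), and at most 61.7%, 60.6% and 78.5% in these 3 groups. The same 5 probe sets were the brightest of the HOX genes in every group, those of Hoxc9, Hoxa9, Hoxa7, Hoxa5 and Hoxb3. Hoxc9 and Hoxa7 have 1 probe set each, and the other probe sets of the rest read low. That of Hoxa5 gave 2.58 in yDucts, 2.57 in Ducts and 4.04 in Acini and was above the percentile on 4 arrays. That of Hoxa9 was above it on 1 array and that of Hoxb3 on 0. Hoxc9, which sets thoracic identity in motor neurons, gave 5.45 ± 0.07 in yDucts, 5.32 ± 0.19 in Ducts and 6.49 ± 0.46 in Acini (SD, n = 4). This is an order of signals and not of transcript amounts, because probe sets differ in how well they bind.

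By cluster, 5 of 9 HOX A genes, 4 of 9 HOX B, 5 of 7 HOX C and 3 of 8 HOX D were above the percentile on all 4 yDucts arrays. The counts were 4, 3, 5 and 2 in Ducts and 6, 4, 5 and 2 in Acini. By position, central genes (paralogues 4 to 8) were above it on all 4 arrays in 8 of 12 cases in each of the 3 groups, whereas anterior genes (paralogues 1 to 3) were so in 2 of 7 in yDucts, 2 in Ducts and 3 in Acini, and posterior genes (paralogues 9 to 13) in 7 of 14, 4 and 6. No cluster was therefore read along its whole length, and each of the 4 had members at the bottom of the range beside members above it.

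The 14 genes Hoxa2, Hoxa4, Hoxa10, Hoxb1, Hoxb5, Hoxb7, Hoxb13, Hoxc8, Hoxc10, Hoxd1, Hoxd3, Hoxd10, Hoxd11 and Hoxd12 were above the percentile on fewer than 4 arrays and were not tested: 7 of them on 1 array, always an Acini array, and 7 on none. Their means were lower in both organoid groups than in Acini in 14 of 14 cases, but 4 of them (Hoxa2, Hoxb7, Hoxc10 and Hoxd12) ranked higher on the organoid arrays than on the Acini arrays, so value and rank gave opposite orders for these 4. Hoxd1, an anterior gene of the D cluster, stood out on 1 array: it read 2.47, 2.48, 2.57 and 2.38 on yDucts A to D, 2.47, 2.58, 2.60 and 2.46 on Ducts A to D, and 5.12, 2.49, 2.55 and 2.70 on Acini A to D. Only Acini A was high.

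Of the 19 tested HOX genes, limma called 18 lower and 0 higher in yDucts than in Acini (adjusted p under 0.05), and Hoxb9 alone was not called. The background matters here. Over all 14990 tested genes, 32.6% were called lower and 43.6% higher in this comparison, but among the 6140 tested genes no brighter than the brightest HOX gene the shares were 59.2% lower and 14.1% higher. The median difference of the 19 genes was -0.94 (log2), against 0.24 over all tested genes and -0.69 over the dim ones. The arrays of the 2 groups did not overlap for 16 of the 19 genes (84.2%), against 71.7% of all tested genes and 64.2% of the dim ones. In Ducts against Acini, 17 of 19 were called lower and none higher, and the exceptions were Hoxa7 and Hoxb9. The shares over all tested genes were 33.1% lower and 42.7% higher, and over the dim genes 59.8% lower and 12.5% higher. The median was -1.02, against 0.21 and -0.69, and 16 of 19 genes (84.2%) did not overlap, against 64.5% of all tested genes and 57.9% of the dim ones. Both comparisons use the same Acini arrays. Ducts were not grown from acini, so fell and rose below give the direction of a difference and not a change over time. Of the 19 genes, 18 were above the percentile on at least 3 arrays of every group, whereas Hoxa13 was above it on 5 arrays, 4 of them Acini. Hoxa13 therefore passed the filter only through the Acini arrays, so its lower calls are not independent of that selection. In bulk RNA, fewer cells of a type and less RNA per cell cannot be told apart.

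**Figure D2:**
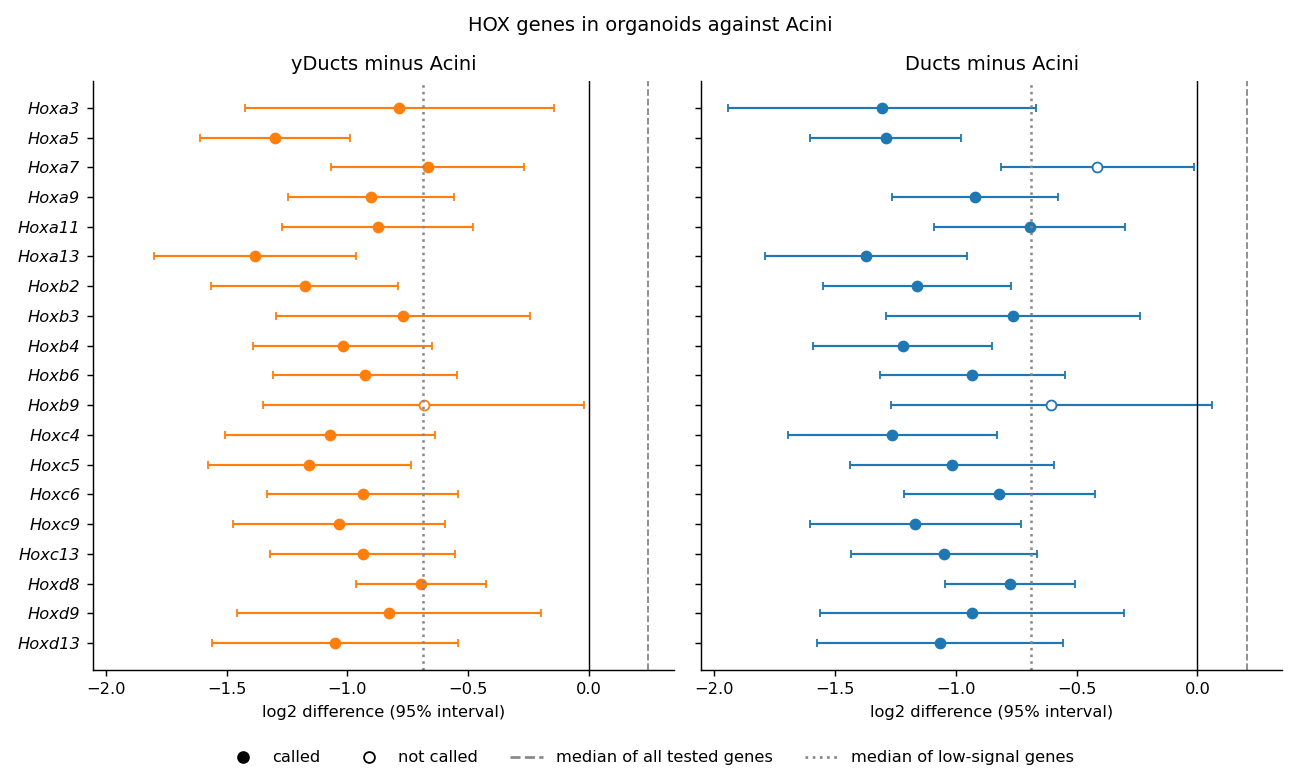
Difference (log2, points) of the 19 tested HOX genes in yDucts (left) and Ducts (right) from Acini, with 95% intervals from the limma fit; filled points were called, open points were not (Hoxb9 on both sides, Hoxa7 in Ducts), and vertical lines mark 0, the median of all tested genes (0.24 and 0.21) and the median of the genes no brighter than the brightest HOX gene (-0.69 on both sides). All 19 points lie left of 0 in both panels.

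In the A cluster, 6 of 9 genes were tested. Hoxa5, which patterns the lung and the cervical and upper thoracic skeleton, read 4.52, 4.61, 4.65 and 4.79 on yDucts A to D, 4.80, 4.81, 4.60 and 4.40 on Ducts A to D, and 6.19, 5.85, 5.89 and 5.84 on Acini A to D. Every organoid array lay at least 1 log2 unit below every Acini array. It fell by 1.30 ± 0.14 (log2 ± SE) in yDucts (2.46-fold, limma adjusted p = 3.81e-06) and by 1.29 ± 0.14 in Ducts (2.45-fold, adjusted p = 4.22e-06), the smallest adjusted p of any HOX gene in either comparison. Hoxa13, the last gene of the cluster, which shapes digits and the hindgut and urogenital outlets, read 2.97, 3.24, 2.91 and 3.03 in yDucts, 3.10, 3.07, 2.88 and 3.14 in Ducts, and 4.39, 4.01, 4.26 and 5.02 in Acini. The groups did not overlap, and 7 of the 8 organoid arrays were below their percentile. On the deposited scale it was at least 2.32-fold lower in yDucts (adjusted p = 2.93e-05) and at least 2.31-fold lower in Ducts (adjusted p = 3.18e-05). The bound does not remove the offset between organoid and Acini arrays. In yDucts the difference was -0.63 (log2) with all values raised to a common floor and -0.86 with the 30th percentiles set equal. Hoxa3, needed for the thymus and parathyroid, read 4.01, 4.34, 3.86 and 3.88 in yDucts, 3.58, 3.60, 3.49 and 3.34 in Ducts, and 4.70, 4.55, 4.10 and 5.88 in Acini. Acini D was the highest by more than 1 log2 unit, and Acini C fell within the yDucts range. The fall in Ducts was 2.47-fold (-1.31 ± 0.29, adjusted p = 0.00140), that in yDucts 1.72-fold (-0.79 ± 0.29, adjusted p = 0.0276), and the yDucts call was lost without yDucts A (-0.78, adjusted p = 0.0523), without yDucts C (-0.73, 0.0650), without yDucts D (-0.74, 0.0631) and under 4 of the other scalings below. Without Acini D the call held at -0.43 (adjusted p = 0.0468). Hoxa9, known for its role in blood progenitors, fell by 0.90 ± 0.16 in yDucts and 0.92 ± 0.16 in Ducts, and Hoxa11, which patterns the forearm and the uterus, by 0.88 ± 0.18 and 0.70 ± 0.18. Hoxa7 fell by 0.67 ± 0.18 in yDucts (adjusted p = 0.00526) and differed by -0.42 ± 0.18 in Ducts without passing the test (adjusted p = 0.0560), although its Ducts arrays (4.62 to 5.40) lay below its Acini arrays (5.41 to 5.72). Hoxa7 in Ducts passed the test without Ducts C (-0.51, adjusted p = 0.0326), without Ducts C and D (-0.65, 0.0173), after quantile normalization (-0.74, 0.00445) and after cyclic loess (-0.51, 0.0286). It also passed in the fit on averaged probe sets (-0.42, 0.0471), but Hoxa7 has 1 probe set, so its own values were unchanged there. Without Ducts A and B it lay at -0.18.

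In the B cluster, 5 of 9 genes were tested. Hoxb4, a gene that expands blood stem cells when it is overexpressed, read 3.68, 3.73, 3.91 and 3.70 in yDucts, 3.87, 3.70, 3.31 and 3.34 in Ducts, and 4.76, 4.79, 4.47 and 5.08 in Acini. No organoid array reached the lowest Acini array. Its falls were 2.03-fold in yDucts (-1.02 ± 0.17, adjusted p = 0.000135) and 2.33-fold in Ducts (-1.22 ± 0.17, adjusted p = 2.99e-05). Hoxb2, a regulator of hindbrain segments, read 3.30, 3.29, 3.08 and 3.41 in yDucts, 3.30, 3.34, 3.37 and 3.14 in Ducts, and 3.96, 4.50, 4.44 and 4.89 in Acini. Both organoid groups lay within 0.4 log2 units, close to their percentile, under all 4 Acini arrays. The differences were -1.18 ± 0.18 (2.26-fold, adjusted p = 6.15e-05) in yDucts and -1.16 ± 0.18 (2.23-fold, adjusted p = 7.06e-05) in Ducts. Hoxb3 fell by 0.77 ± 0.24 in yDucts and 0.76 ± 0.24 in Ducts (in Ducts not called without Ducts C and D together, -0.66, adjusted p = 0.0787), and Hoxb6 by 0.93 ± 0.18 in both. Hoxb9, which acts in the rib cage, read 3.38, 3.34, 3.34 and 3.23 in yDucts, 3.56, 3.39, 3.09 and 3.57 in Ducts, and 4.70, 3.98, 2.89 and 4.46 in Acini. Acini C was the lowest of all 12 arrays, below the percentile, while the other 3 Acini arrays were the highest. Neither difference passed the test (-0.69 ± 0.31, adjusted p = 0.0572 in yDucts, and -0.61 ± 0.31, adjusted p = 0.0886 in Ducts), and both did without Acini C (-1.06, adjusted p = 0.000292 in yDucts, and -0.98, 0.000526 in Ducts). Without Acini A both moved the other way, to -0.45 (adjusted p = 0.179) in yDucts and -0.37 (0.266) in Ducts.

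All 5 tested genes of the C cluster, of 7, were lower in both organoid groups. Hoxc9 read 5.38, 5.54, 5.44 and 5.45 in yDucts, 5.13, 5.19, 5.51 and 5.45 in Ducts, and 6.95, 6.81, 6.10 and 6.09 in Acini. The Acini arrays formed 2 pairs, A and B above C and D, and the lower pair was still above all organoid arrays. It fell 2.05-fold in yDucts (-1.04 ± 0.20, adjusted p = 0.000465) and 2.25-fold in Ducts (-1.17 ± 0.20, adjusted p = 0.000180). Hoxc4 read 4.12, 3.68, 3.94 and 3.89 in yDucts, 3.75, 3.61, 3.79 and 3.72 in Ducts, and 5.38, 4.87, 5.28 and 4.39 in Acini, so the closest arrays, Acini D and yDucts A, were 0.27 apart. The falls were 2.10-fold (-1.07 ± 0.20, adjusted p = 0.000329) in yDucts and 2.40-fold (-1.26 ± 0.20, adjusted p = 8.76e-05) in Ducts. Its neighbour Hoxc5 read 3.83, 3.59, 3.63 and 3.77 in yDucts, 3.82, 3.68, 3.91 and 3.98 in Ducts, and 5.11, 5.24, 4.25 and 4.85 in Acini. Acini C was the lowest Acini array and still exceeded all 8 organoid arrays. Hoxc5 fell 2.23-fold in yDucts (-1.16 ± 0.19, adjusted p = 0.000140) and 2.02-fold in Ducts (-1.02 ± 0.19, adjusted p = 0.000407). Hoxc13, which controls keratins of hair and nail, read 3.79, 3.55, 3.76 and 3.72 in yDucts, 3.73, 3.53, 3.55 and 3.57 in Ducts, and 5.03, 4.91, 4.24 and 4.39 in Acini, again without overlap. It fell 1.92-fold in yDucts (-0.94 ± 0.18, adjusted p = 0.000366) and 2.07-fold in Ducts (-1.05 ± 0.18, adjusted p = 0.000151). Hoxc6 fell by 0.94 ± 0.18 and 0.82 ± 0.18 in these 2 groups.

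In the D cluster only 3 of 8 genes were tested. Hoxd13, which like Hoxa13 shapes the digits, read 3.67, 3.54, 3.29 and 3.39 in yDucts, 3.10, 3.47, 3.50 and 3.77 in Ducts, and 4.68, 5.02, 3.80 and 4.60 in Acini. Acini C lay just 0.03 above Ducts D, and the other 3 Acini arrays were clear of all organoid arrays. The falls were 2.07-fold in yDucts (-1.05 ± 0.24, adjusted p = 0.00127) and 2.09-fold in Ducts (-1.07 ± 0.24, adjusted p = 0.00118). Hoxd8 had the tightest Acini arrays, 4.11 to 4.30, against 3.39 to 3.62 in yDucts and 3.28 to 3.52 in Ducts, and fell by 0.70 ± 0.12 and 0.78 ± 0.12. Hoxd9 read 3.85, 3.77, 4.08 and 3.88 in yDucts, 3.65, 3.70, 3.81 and 4.0 in Ducts, and 3.79, 5.38, 4.42 and 5.30 in Acini. Acini A lay within the organoid range. Hoxd9 fell by 0.83 ± 0.29 in yDucts (adjusted p = 0.0198) and by 0.93 ± 0.29 in Ducts (adjusted p = 0.0107), and the yDucts call was lost without Acini B (-0.61, adjusted p = 0.0672) and without Acini D (-0.64, 0.0671), the Ducts call without Ducts A and B together (-0.82, 0.0643). The median difference per cluster was -0.89, -0.93, -1.04 and -0.83 for A, B, C and D in yDucts and -1.11, -0.93, -1.05 and -0.93 in Ducts. Per position it was -0.79 (3 anterior genes), -0.98 (8 central) and -0.92 (8 posterior) in yDucts, and -1.16, -0.97 and -0.99 in Ducts. Differences between clusters or positions were not tested.

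For the 4 genes that were lower in both organoid groups under each of 6 scalings of the arrays, described further on, and that the RefSeq promoter table holds, the 300 bases around the transcription start (250 before, 50 after, assembly GRCm38.p6, 5′ to 3′ on the strand of the gene) are printed here with every CG in capitals, because Polycomb and Trithorax complexes bind CG-rich promoters. The other 3 genes with this result were Hoxb2, Hoxc5 and Hoxc9. The 4 are Hoxa5 (chr6:52204538-52204837, minus strand), Hoxa13 (chr6:52260831-52261130, minus strand), Hoxb4 (chr11:96318017-96318316, plus strand) and Hoxc4 (chr15:103034145-103034444, plus strand).
Hoxa5: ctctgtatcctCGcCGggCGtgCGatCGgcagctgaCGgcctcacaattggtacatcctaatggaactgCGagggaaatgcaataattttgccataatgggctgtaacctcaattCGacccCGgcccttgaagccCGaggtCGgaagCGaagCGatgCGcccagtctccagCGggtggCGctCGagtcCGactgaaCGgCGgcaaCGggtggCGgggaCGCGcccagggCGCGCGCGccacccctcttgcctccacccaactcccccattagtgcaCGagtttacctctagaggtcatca
Hoxa13: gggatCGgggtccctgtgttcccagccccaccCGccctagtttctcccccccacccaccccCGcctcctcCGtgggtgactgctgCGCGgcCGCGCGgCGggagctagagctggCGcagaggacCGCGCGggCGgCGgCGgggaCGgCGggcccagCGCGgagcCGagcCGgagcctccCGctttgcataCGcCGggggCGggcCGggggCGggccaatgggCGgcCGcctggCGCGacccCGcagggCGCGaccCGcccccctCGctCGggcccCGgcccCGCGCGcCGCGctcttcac
Hoxb4: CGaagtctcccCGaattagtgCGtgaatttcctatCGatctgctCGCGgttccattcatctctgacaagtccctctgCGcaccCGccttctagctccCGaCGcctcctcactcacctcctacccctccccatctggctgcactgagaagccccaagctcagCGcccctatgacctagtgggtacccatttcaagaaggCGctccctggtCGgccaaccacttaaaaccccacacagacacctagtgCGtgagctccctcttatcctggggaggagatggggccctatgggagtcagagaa
Hoxc4: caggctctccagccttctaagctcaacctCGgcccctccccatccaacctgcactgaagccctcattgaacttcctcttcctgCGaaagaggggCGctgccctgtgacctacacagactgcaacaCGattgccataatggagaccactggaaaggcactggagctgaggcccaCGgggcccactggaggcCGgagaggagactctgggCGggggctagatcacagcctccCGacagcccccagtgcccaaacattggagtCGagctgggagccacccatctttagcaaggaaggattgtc
The 4 differ widely in CG. The Hoxa13 promoter holds 45 (1.93% of the 32851 promoters of this length in the table hold as many), that of Hoxa5 29 (12.9%), that of Hoxb4 14 (36.3%) and that of Hoxc4 9 (45.8%), against a median of 7. None of the 4 holds TGATNNAT, a site of HOX and PBX proteins, searched on both strands, which 8.85% of all these promoters do. Only 19 of the 33 genes (57.6%) had an entry, too few for a statement on HOX promoters as a group.

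Between the 2 kinds of organoid, no HOX gene was called by limma in yDucts against Ducts (0 of 19 higher, 0 lower), and 0 of 19 had an unadjusted p under 0.05. Over all tested genes 2.15% were called higher and 0.987% lower, and among those no brighter than the brightest HOX gene 2.25% and 0.603%. The differences ran from -0.25 (Hoxa7) to 0.52 (Hoxa3) with a median of 0.005, and 10 were positive and 9 negative. On its brightest probe set, Hoxa3 was the 1 gene of 19 (5.26%, against 12.3% of all tested genes and 9.02% of the dim ones) whose arrays did not overlap: the lowest yDucts array (3.86) was above the highest Ducts array (3.60). Its 3 other probe sets did not show this, with yDucts minus Ducts at 0.065 (above the percentile on 6 arrays), -0.010 and -0.015. Its difference was 0.52 ± 0.29 (95% interval -0.12 to 1.16, adjusted p = 0.513), and that of Hoxa7 -0.25 ± 0.18 (-0.65 to 0.15, adjusted p = 0.672), or -0.49 without Ducts A and B and -0.020 without Ducts C and D. The interval of Hoxa5 (-0.32 to 0.30) was among the narrowest, with that of Hoxd8 (-0.19 to 0.35), and that of Hoxb9 (-0.74 to 0.58) among the widest. The bounds of all 19 intervals lay within 1.16 log2 units of 0, so that a difference of 1 log2 unit in signal lies outside the interval of each gene but Hoxa3. This does not bound the difference in transcript for signals at the bottom of the range in both groups. Hoxa13 (3.04 in yDucts, 3.05 in Ducts) was below the percentile in both, where a signal has only an upper limit, and Hoxb2 (3.27, 3.29) was close to it. When arrays were weighted by their quality, 4 of the 19 genes were called, Hoxa3 (0.48) and Hoxb4 (0.42) higher and Hoxa7 (-0.55) and Hoxa11 (-0.25) lower in yDucts, in a fit that called 21.0% of all tested genes higher and 20.2% lower.

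**Figure D3:**
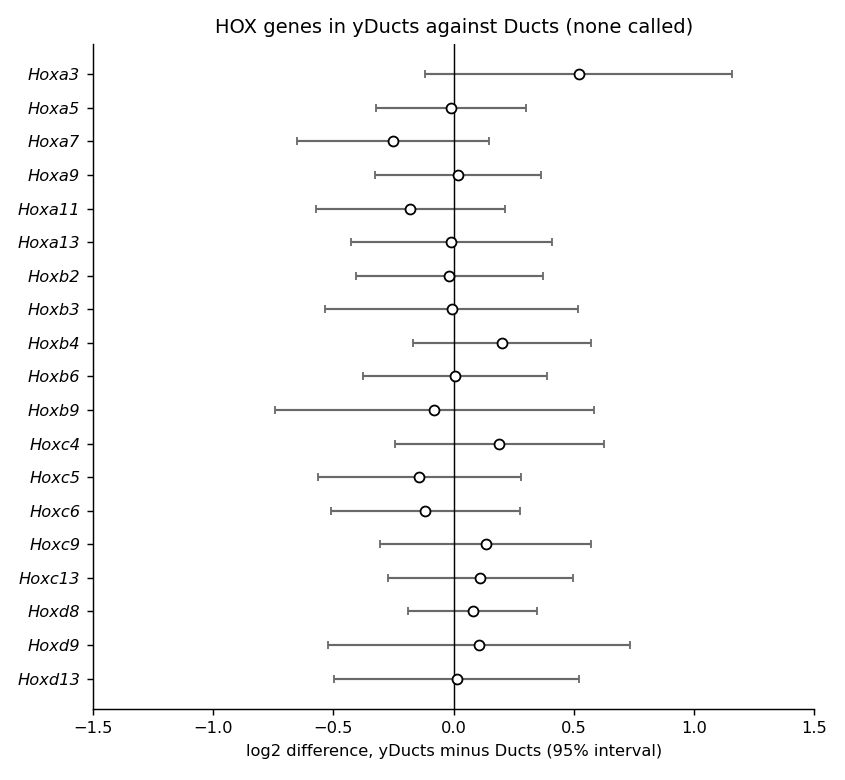
Difference (log2, points) of the 19 tested HOX genes between yDucts and Ducts, with 95% intervals from the limma fit. A positive value means higher in yDucts, every interval crosses 0, and the widest departure is Hoxa3 at 0.52.

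Because the Acini arrays read higher at the bottom of their range, the differences from Acini were recomputed with 5 other scalings of the arrays. The number of HOX genes called lower in yDucts than in Acini was 18 with the values as deposited, 19 with all values raised to a common floor, 15 with equal medians, 14 after quantile normalization, 11 after cyclic loess and 10 with the 30th percentiles set equal, and in Ducts it was 17, 18, 16, 16, 13 and 12. None was called higher in any of them. The share of all tested genes called lower was 32.6%, 29.3%, 26.3%, 35.9%, 36.0% and 17.5% in yDucts, and the share called higher 43.6%, 43.2%, 48.3%, 29.2%, 27.1% and 55.0%. In Ducts the shares were 33.1%, 29.8%, 26.8%, 36.1%, 36.6% and 17.9% lower and 42.7%, 42.2%, 47.0%, 28.4%, 25.8% and 53.7% higher. Shares over the dim genes alone were not computed under the 5 other scalings. With the 30th percentiles set equal, the median HOX difference was -0.41 in yDucts and -0.51 in Ducts, where the median over all tested genes was 0.77 and 0.72. Under each of the 6 scalings 8 genes were called lower in yDucts (Hoxa5, Hoxa13, Hoxb2, Hoxb4, Hoxc4, Hoxc5, Hoxc6 and Hoxc9) and 10 in Ducts (Hoxa3, Hoxa5, Hoxa9, Hoxa13, Hoxb2, Hoxb4, Hoxc4, Hoxc5, Hoxc9 and Hoxc13), with 7 in common. Among these, Hoxa13 had passed the filter only through the Acini arrays. The adjusted p of Hoxa5 was at most 0.000237 in yDucts and 0.000229 in Ducts over all alternatives run.

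**Figure D4:**
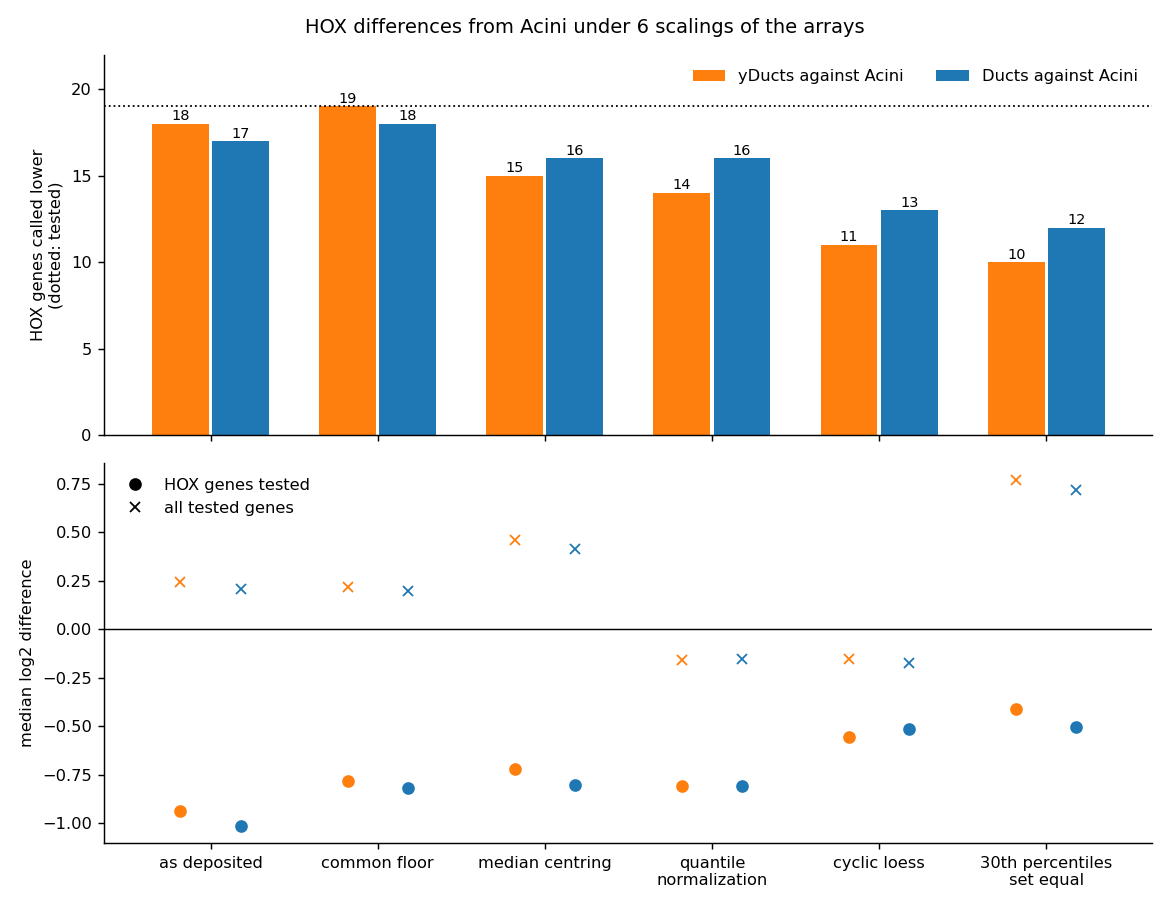
Number of HOX genes called lower than in Acini (top, bars for yDucts and Ducts, dotted line at the 19 tested) and median log2 difference of the tested HOX genes (bottom, dots) beside that of all tested genes (crosses), under 6 scalings of the arrays. The HOX median stays below 0 in all 6, while that of all tested genes changes sign under quantile normalization and cyclic loess.

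Other probe sets of the same genes gave little more. The 11 genes with more than 1 probe set had 15 others, of which 8 were above the percentile on no array, 4 on at least 4 arrays and 0 on all 12. All 15 had lower means in yDucts and in Ducts than in Acini. At this level the Acini arrays read higher in general (30th percentile 3.72, against 3.20 and 3.21), so the shared direction is not separate evidence. The share over all probe sets was not computed. The probe sets of Hoxa9 differed most, by 2.27 log2 units in their mean over all arrays. Hoxb5os, an antisense transcript of the B cluster chosen after its values were seen, differed by -0.72 ± 0.18 in yDucts (adjusted p = 0.00322) and by -1.06 ± 0.18 in Ducts (adjusted p = 0.000195) from Acini, with yDucts and Ducts 0.34 apart (adjusted p = 0.496).

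HOX cofactors were found in both directions. Of 8 tested, 5 were lower and 2 higher in yDucts than in Acini (all tested genes: 32.6% and 43.6%), and 5 lower and 2 higher in Ducts (33.1% and 42.7%). Pbx3, which encodes a DNA-binding partner of HOX proteins, read 8.34, 7.97, 8.27 and 7.89 on yDucts A to D, 6.27, 7.07, 6.18 and 6.33 on Ducts A to D, and 9.09, 9.04, 9.09 and 9.18 on Acini A to D. The 3 groups did not overlap, with Ducts lowest. It fell by 0.98 ± 0.19 in yDucts (1.98-fold, adjusted p = 0.000501) and by 2.64 ± 0.19 in Ducts (6.22-fold, adjusted p = 1.10e-07), and the yDucts call was lost with the 30th percentiles set equal. It was 3.15-fold higher in yDucts than in Ducts (1.66 ± 0.19, adjusted p = 0.000375), the only cofactor called between the organoids. Meis1, a MEIS cofactor, read 3.84, 4.17, 3.63 and 3.61 in yDucts, 5.11, 4.36, 4.07 and 3.46 in Ducts, and 5.15, 4.99, 5.94 and 4.89 in Acini. Ducts A lay within the Acini range. Meis1 fell by 1.43 ± 0.32 in yDucts (adjusted p = 0.00126) and by 0.99 ± 0.32 in Ducts (adjusted p = 0.0127, lost without Ducts C and D together, -0.51, 0.166, after cyclic loess, -0.61, 0.122, and with the 30th percentiles set equal, -0.48, 0.202). Meis3 fell by 0.93 ± 0.15 and 0.90 ± 0.15, and Pknox2 by 1.11 ± 0.19 and 1.25 ± 0.19. The 2 that rose were Pbx2 and Meis2, and neither was called higher after quantile normalization or cyclic loess.

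Of 18 tested ParaHox genes (a sister group of the HOX clusters) and genes beside the clusters, 9 were higher and 7 lower than in Acini in yDucts, against 9 higher and 6 lower in Ducts, near the shares over all tested genes (43.6% and 32.6% in yDucts, 42.7% and 33.1% in Ducts). Cdx2, a ParaHox gene that specifies intestine and in the mouse embryo activates HOX genes, read 7.86, 7.67, 7.77 and 7.85 in yDucts, 6.20, 6.41, 6.75 and 6.55 in Ducts, and 5.23, 4.18, 5.76 and 5.47 in Acini. The groups stood in that order without overlap. It rose 6.18-fold in yDucts (2.63 ± 0.27, adjusted p = 2.18e-06) and 2.49-fold in Ducts (1.32 ± 0.27, adjusted p = 0.000750, lost after cyclic loess, 0.53, 0.101), and was 2.48-fold higher in yDucts than in Ducts (1.31 ± 0.27, adjusted p = 0.0190). The last call was lost after quantile normalization (adjusted p = 0.141), without Ducts C and D together (1.48, adjusted p = 0.0537) and without yDucts A (1.29, 0.0731), yDucts C (1.32, 0.0630) or yDucts D (1.29, 0.0626). Close to the clusters but outside them, Smug1, a DNA repair enzyme beside HOX C, rose 6.01-fold in yDucts and 7.92-fold in Ducts, Lnpk, beside HOX D, 4.76-fold and 6.49-fold, and Cbx1, a heterochromatin protein beside HOX B, 3.36-fold and 4.61-fold. These 3 were called higher under each of the 6 scalings, and were named for their size. Neighbours did not move as 1 group: beside HOX B, Skap1 (-1.38 in yDucts, -1.32 in Ducts), Snx11 (-0.90, -0.67) and Ttll6 (-0.76, -0.64) were lower, as was Evx1 beside HOX A (-0.93, -0.99), while Skap2 and Snx10 beside HOX A, Cbx5 beside HOX C and Mtx2 beside HOX D were higher in both, a list completed after the values were seen.

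**Figure D5:**
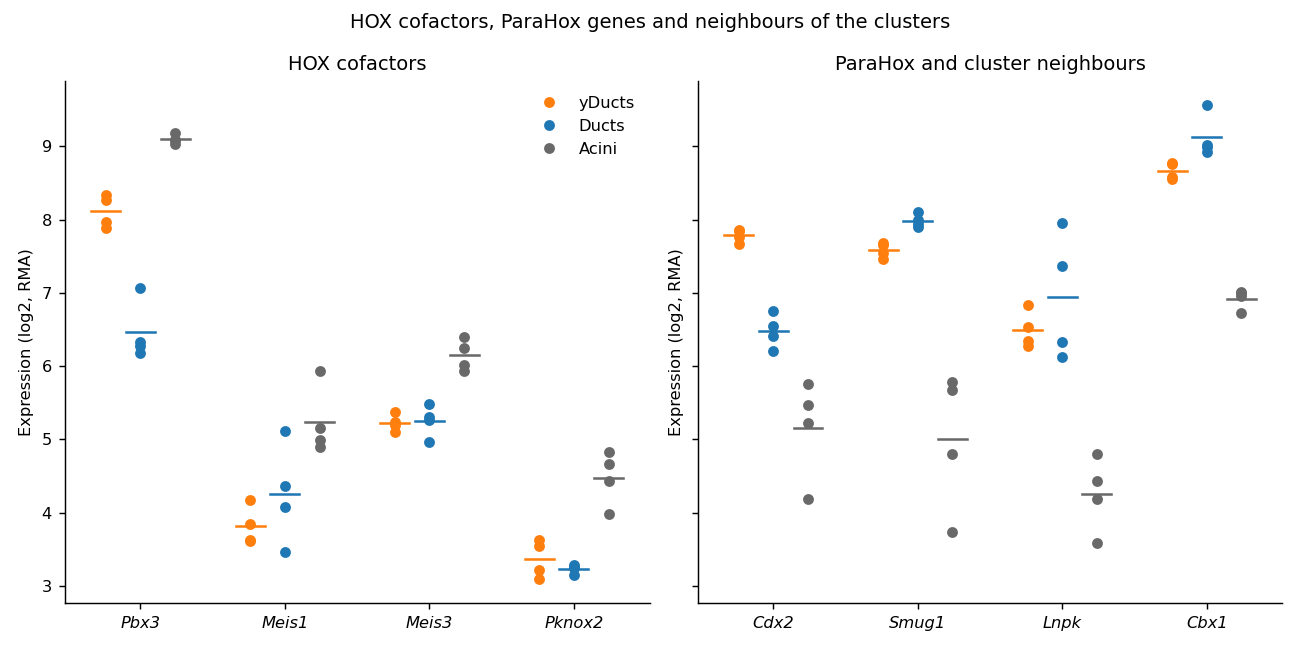
Expression (log2, RMA) on each array of the 4 genes with the largest differences among the HOX cofactors (left) and among the ParaHox genes and cluster neighbours (right); points are arrays of yDucts, Ducts and Acini and bars are means of 4. Pbx3 and Cdx2 are the 2 genes of these lists that were called between yDucts and Ducts.

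Polycomb genes, which encode repressors of silent HOX clusters, were counted next. Against Acini, 18 of 26 tested rose and 2 fell in yDucts (all tested genes: 43.6% and 32.6%), and 19 rose and 3 fell in Ducts (42.7% and 33.1%). The direction of calls varied with brightness. Among the genes no brighter than the brightest HOX gene, 14.1% were higher and 59.2% lower in yDucts, and 12.5% and 59.8% in Ducts. Without shares for genes as bright as most on this list and the next, the counts do not set either list apart. Aebp2 and Bmi1, subunits of Polycomb complexes, rose by 2.55 ± 0.18 and 2.25 ± 0.36 in yDucts and by 2.38 ± 0.18 and 2.28 ± 0.36 in Ducts, and Pcgf6 and Phc2 by 1.98 ± 0.28 and 2.03 ± 0.21 in yDucts and by 2.37 ± 0.28 and 2.30 ± 0.21 in Ducts. After cyclic loess the counts were 14 higher and 7 lower in yDucts and 15 and 6 in Ducts. The list of Trithorax and demethylase genes, which counter Polycomb, had 9 of 14 higher and 4 lower in yDucts and 9 higher and 2 lower in Ducts, beside the same shares of all tested genes, led by Kmt2d, Ash2l, Dpy30 and Mllt3 (1.66 ± 0.25, 1.51 ± 0.19, 1.95 ± 0.26 and 1.99 ± 0.41 in yDucts). The Kmt2d call was lost after cyclic loess (0.58 in yDucts, 0.62 in Ducts) and when its probe sets were averaged (0.21 and 0.27). Mllt3 in Ducts (1.47 ± 0.41) was not called when Ducts A and B were left out (0.70, adjusted p = 0.0971), nor after cyclic loess (0.89). That balance depended on scaling: after cyclic loess 3 were higher and 5 lower in yDucts, and 3 and 6 in Ducts. In neither list was any gene called between yDucts and Ducts.

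Retinoic acid, made from retinol, switches on HOX genes in the embryo. Of 16 tested retinoid genes, 3 were higher and 6 lower than in Acini in yDucts, 3 were higher and 5 lower in Ducts (all tested genes: 43.6% and 32.6% in yDucts, 42.7% and 33.1% in Ducts), and with the 30th percentiles set equal 5 were higher and 3 lower in each. Rdh10, the enzyme of the first oxidation of retinol, read 11.74, 11.93, 11.61 and 11.65 in yDucts, 11.72, 12.91, 12.31 and 12.25 in Ducts, and 5.64, 6.19, 6.26 and 7.14 in Acini. No organoid array came within 4 log2 units of any Acini array. It rose 43.0-fold in yDucts (5.43 ± 0.30, adjusted p = 8.13e-09) and 63.6-fold in Ducts (5.99 ± 0.30, adjusted p = 3.21e-09). Rbp4, the carrier of retinol in plasma, rose 27.3-fold and 11.8-fold. The enzyme genes of the second step moved apart: Aldh1a1 fell 7.19-fold in yDucts and 5.13-fold in Ducts, and Aldh1a3 rose at least 4.92-fold in yDucts (adjusted p = 0.00254), while its Ducts arrays were split, 4.46 and 6.39 on A and B against 2.78 and 2.87 on C and D, and did not pass the test (adjusted p = 0.345, or 0.00514 without Ducts C and D).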

How the data were processed

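RNA of 12 samples was labelled and measured on 1 Affymetrix array each. The authors deposited log2 values, 1 for each of 45101 probe sets and array, with 2 decimals. The submitters' processing notes name RMA. Not given in the sources used here: its version, the chip definition and whether all 12 arrays were normalized together. Values after RMA are relative to the other genes of an array. The deposited arrays were not fully equalised between groups. Their medians were 4.36 to 4.39 in yDucts, 4.36 to 4.40 in Ducts and 4.54 to 4.62 in Acini. The platform annotation named 1 gene for 34945 probe sets, several for 932 and none for 9224. The deposited values carry no detection calls, and the number of arrays limits the precision.

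Each gene was represented by its single-symbol probe set with the highest mean over 12 arrays, which gave 18193 genes, and 14990 that exceeded the 30th percentile of their array on at least 4 arrays were tested. Group means were fitted over all 12 arrays with limma 3.58.1 (R 4.3.3; 9 residual and 3.72 prior degrees of freedom), tests were two-sided, and p-values were adjusted by Benjamini-Hochberg over all tested genes, with a call at an adjusted p under 0.05. Differences are log2 with the SE of the fit, and intervals are 95%. Where a group mean lay below the percentile, values under it were raised to it. The resulting fold is a lower bound on the deposited scale and does not remove offsets between arrays. Per-array values were printed for HOX genes called in a comparison with a difference of at least 1 (log2) and no overlap there, together with Hoxb9, Hoxd1 and Hoxd9, chosen after their values were seen; the rest were summarised, and for other lists up to 4 genes with the largest difference. The members and gene lists were chosen with earlier results of these data known. The fit was tested on simulated data. Tables and plots used Python 3.11.15, pandas 2.3.3, numpy 2.4.6, scipy 1.17.1 and matplotlib 3.10.9, and the promoter sequences are from RefSeq, GRCm38.p6. Alternatives were other scalings, filters, probe set choices, array weights, a trended prior, a replicate block and fits without single arrays.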

Additional observations from a re-analysis of the deposited data

Results flagged for a closer look

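Among 99 sets of 4 arrays (33 HOX genes in 3 groups), 8 held 1 array whose gap to the nearest of the others was large against the range of the set, where chance gives about 1 in 20. Hoxd1 read 5.12 on Acini A, against 2.49 to 2.70 on the other Acini arrays. Hoxd11 read 3.93 on Acini C, against 3.14 to 3.25. Hoxa5 read 6.19 on Acini A (5.84 to 5.89 on the others) and Hoxa9 5.35 on Acini D (5.92 to 6.01), both tested genes, unlike Hoxd1 and Hoxd11. In Ducts, Hoxa11 read 3.21 on Ducts B (3.55 to 3.60 on the others), Hoxa10 2.34 on Ducts B (2.47 to 2.49) and Hoxc10 2.78 on Ducts D (2.52 to 2.56). In yDucts, Hoxa10 read 2.37 on yDucts B (2.21 to 2.22). The Hoxa10 and Hoxc10 values lay below the 30th percentile of their arrays.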

How the results depend on the processing

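The count of HOX genes lower in yDucts than in Acini (18) was 11 after cyclic loess, 10 with the 30th percentiles set equal (a scaling added after seeing the data), 28 of 33 without the filter and 6 of 6 tested with the filter at the 50th percentile. In Ducts (17) it was 28 of 33 without the filter and 5 of 6 at the 50th percentile. The filters change how many genes are tested, and the cause of the other shifts was not tested. With array weights, 2 HOX genes were higher (Hoxa3, Hoxb4) and 2 lower (Hoxa7, Hoxa11) in yDucts than in Ducts, where 21.0% of all tested genes were called higher and 20.2% lower. Leaving out 1 array gave 17 to 19 lower in yDucts and 17 to 18 in Ducts, and 0 between yDucts and Ducts. No HOX gene was called higher than in Acini under any alternative. Same-lettered arrays did not deviate together (correlations from -0.35 to 0.13, with the own letter the best match in 2 of 12 cases). With 4 arrays per group, this cannot show whether same-lettered arrays share an animal or a day. With the replicate block 19 were lower in yDucts, 17 in Ducts and 0 differed between the organoids. Over 40 HOX results, 987 of 1044 alternative values kept direction and call, 42 lost the call, 14 gained it and 1 turned: Hoxa7 in Ducts, 0.10 (log2) with the 30th percentiles set equal. Many alternatives could not move an estimate, so these totals do not measure robustness. Without a Ducts array, for instance, Hoxa3 in yDucts against Acini stayed at -0.79. Of 1132 values of 42 results of other genes, 16 lost the call and 3 turned, all of Aldh1a3 in Ducts against Acini (-0.32 with array weights, -0.61 without Ducts A and B, -0.063 to 1.14 without 1 array, the lowest without Ducts B).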
